A study of Danio rerio with 8 samples.

Results

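Splicing factors, heterogeneous nuclear ribonucleoproteins (hnRNPs) and RNA helicases are described here in blood-marker-sorted cells of the zebrafish embryo. The 114 genes were taken from the array's probe sets with 1 platform gene symbol, where that symbol begins with srsf, sf3, snrp, hnrnp, prpf, u2af, lsm and a digit, sfpq, ddx or dhx. They are 114 of 8793 such genes on the array and are covered by 153 of its 15617 probe sets. The probe set with the highest mean log2 signal stands for each gene. All cells came from AB embryos, 35 hours post fertilization, that carried the cd41-GFP transgene, whose GFP is driven by the promoter of itga2b, a marker gene of thrombocytes and early blood progenitors. Embryos came from pairwise matings, and cells that excluded propidium iodide were sorted by forward scatter and GFP, in 2 passes, into a GFP-positive fraction and a GFP-negative fraction that holds the remaining cells of the embryo, with 4 Affymetrix arrays of each, paired by replicate number. Both fractions carry the transgene, and their RNA went through 2 rounds of linear amplification. Each gene has 1 signal per array, on the deposited linear MAS5 scale. Whether each sort used its own clutch is not in the labels; the p-values therefore rest on the spread between sorts, which may be technical.

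Splicing removes introns from new transcripts on the spliceosome, a machine built from small nuclear ribonucleoproteins (snRNPs) whose RNAs carry a ring of Sm or LSM proteins. SF3 and U2AF proteins mark the end of an intron, and several PRPF proteins belong to the U4, U5 and U6 snRNPs. DEAD- and DEAH-box helicases drive rearrangements of the spliceosome. SR proteins mostly promote, and hnRNPs often repress, the use of particular exons. Many DEAD-box helicases act elsewhere, in ribosome assembly, translation or RNA decay, so the symbols also gather genes that take no part in splicing. Genes of this machinery are active in nearly all cell types, and several are mutated in human myeloid malignancies.

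The fractions differed as far as cell types go, and 1 array stood apart for the splicing genes. Over all 9801 tested probe sets 13.0% rose and 18.4% fell (limma adjusted p under 0.05). The marker lists were chosen with earlier results of these data known. Of 15 tested myeloid markers 15 rose, with summed signals of 274830 to 516926 on GFP-positive and 22873 to 56448 on GFP-negative arrays. Of 11 neural markers 11 fell, with sums of 2357 to 12469.9 on GFP-positive and 44282 to 67539.9 on GFP-negative arrays. Muscle (8 of 8), matrix and notochord (6 of 7, with 1 higher), endothelial (3 of 3) and erythroid markers (7 of 10) fell too. Of the erythroid markers hbae3 (log2 difference 0.77, higher in 4 of 4 pairs) and hbbe3 (0.33) lay above 0 and were not called. Summed erythroid signals overlapped, at 238843 to 293340 on GFP-positive and 164156 to 301526 on GFP-negative arrays. The lowest signal of a listed marker was 5.08, for smyhc1 in the GFP-positive fraction. Of 17 cell cycle markers 6 fell (35.3%, background 18.4%) and 0 rose (background 13.0%). Summed over the 18 cell cycle markers on the array, 1 of them not tested, signals were 47216 to 131518 on GFP-positive and 134226 to 203561 on GFP-negative arrays. These sums were separate by a narrow margin, and the signals of pcna, the brightest of the markers, overlapped. The gene of the gate, itga2b, lay under the 40th percentile on all 8 arrays and was not called (log2 difference 0.29, adjusted p = 0.80 in a limma fit without the filter), so it does not check the labels. On the array of GFP-positive replicate 1, the median of the splicing genes lay 0.77 above the median of all tested probe sets on the log2 scale. On the other GFP-positive arrays it lay 1.92 to 2.03 above, and on GFP-negative arrays 1.98 to 2.55. The GAPDH control ratio (3' over 5'), which grows as RNA shortens, was 86.6, 31.3, 99.95 and 45.6 on GFP-positive replicates 1 to 4 and 75.4, 22.6, 18.2 and 21.6 on GFP-negative replicates 1 to 4. The part of cell mixture and of RNA length in the results below was not tested. In sorted bulk samples, fewer cells of a type and less RNA per cell cannot be told apart.

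The splicing genes differed little between the fractions, and most were somewhat lower in the GFP-positive one. Of the 114 genes 105 passed the filter on dim signals, which asks for a signal above the 40th percentile on at least 4 of 8 arrays. By limma with Benjamini-Hochberg adjustment, 9 of 105 fell and 0 rose, against a background of 18.4% of all tested probe sets lower and 13.0% higher. So 8.57% of the genes were called lower, a smaller share than among all probe sets, and none higher. At an unadjusted p under 0.05, 29 of 105 were lower, or 27.6% against 26.7% of all tested probe sets, and 0 were higher, where the background was 17.4%. The median log2 difference was -0.53, against -0.18 over all 9801 tested probe sets. The quartiles were -0.97 and -0.20, an interquartile range of 0.77, against 1.47 over all tested probe sets. Differences beyond 1 in size were found for 24 genes (22.9%, background 38.1%), and beyond 2 for 3 genes, hnrnpl, lsm11 and ddx46 (2.86%, background 14.9%). The splicing genes were also brighter, with a median of the mean log2 signal of 12.03 against 9.98 over all tested probe sets. The part of signal level in these narrower spreads was not tested. The signs leaned one way more than the calls did, since 88 of 105 genes were below 0, or 83.8% against 57.0% of all tested probe sets. Of the 105 genes 53 were lower in 4 of 4 pairs (50.5%, background 31.8%), and 1, lsm7, was higher in 4 of 4 (background 22.0%). The fractions did not overlap for 25 genes that were lower (23.8%, background 19.9%) and for 0 that were higher (background 14.5%).

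These values depend in part on the scaling and on the first pair. Median centring of the arrays moved the median of all probe sets up by 0.19, and quantile normalization by 0.11. The splicing genes stayed below the median of all probe sets by 0.35 and 0.43 under these scalings, and by 0.35 on the deposited scale. Under median centring 1 of the 9 calls was kept, that of sfpq, while 14.7% of all tested probe sets were called lower and 15.3% higher. With no replicate block 6 of the 9 were kept, and those of srsf1b, hnrnpm and snrpb were lost. After quantile normalization those of lsm11 and srsf10b were lost. Without replicate 1 the median of the splicing genes was -0.36 and 18 genes fell, among them 8 of the 9 (all but srsf10b), while 3 fell without replicate 3 (sfpq and srsf2b of the 9, and ddx39b) and 0 without replicate 2 or replicate 4. The background of lower calls was 20.8% without replicate 1, 14.9% without replicate 3, 7.45% without replicate 2 and 6.43% without replicate 4. For 95 genes the signal was above the percentile on all 8 arrays, and 6684 tested probe sets met the same condition. Of the 95 genes 8 fell (8.42%) and 0 rose, with a median of -0.52. Over the 6684 probe sets 14.4% were lower and 13.0% higher, with a median of -0.11. Differences beyond 1 in size were found for 20.0% of the 95 genes (30.3% of the 6684), and beyond 2 for 0 (7.93% of the 6684). The interquartile ranges were 0.65 and 1.25. The 95 genes were still brighter, with a median of the mean log2 signal of 12.20 against 10.81 for the 6684 probe sets. The closest genes outside the threshold were hnrnpr (adjusted p = 0.052), ddx39ab (0.052), snrpd3l (0.053), ddx39b (0.058), srsf3b (0.059) and srsf6a (0.059), and the closest inside it was srsf10b (0.041).

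**Figure D1:**
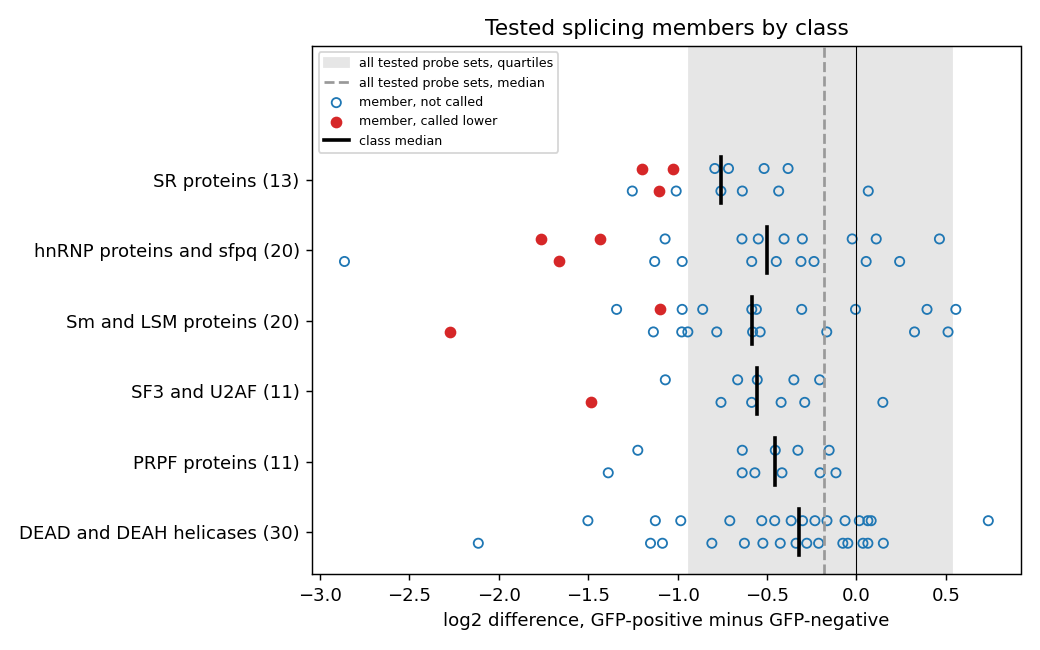
Each point is a tested gene, placed by its log2 difference, GFP-positive minus GFP-negative (mean of 4 pairs), with the classes down the page and the number of tested genes in brackets. Filled points are the 9 genes called lower; black bars are class medians, from -0.76 for SR proteins to -0.32 for helicases, and the grey band spans the quartiles of all 9801 tested probe sets, -0.93 to 0.54.

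The first pair was the widest. Its median over the 105 genes was -1.02, against -0.37, -0.43 and -0.34 in pairs 2 to 4. In pair 1, 53 genes were below -1 and 9 were above 1, whereas in pairs 2, 3 and 4 the genes below -1 numbered 16, 19 and 17 and none was above 1. The interquartile range of the genes was 1.59 in pair 1 and 0.57 to 0.74 in the other pairs. All tested probe sets were also most widely spread in pair 1, with an interquartile range of 2.37 against 1.20 to 1.62.

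**Figure D2:**
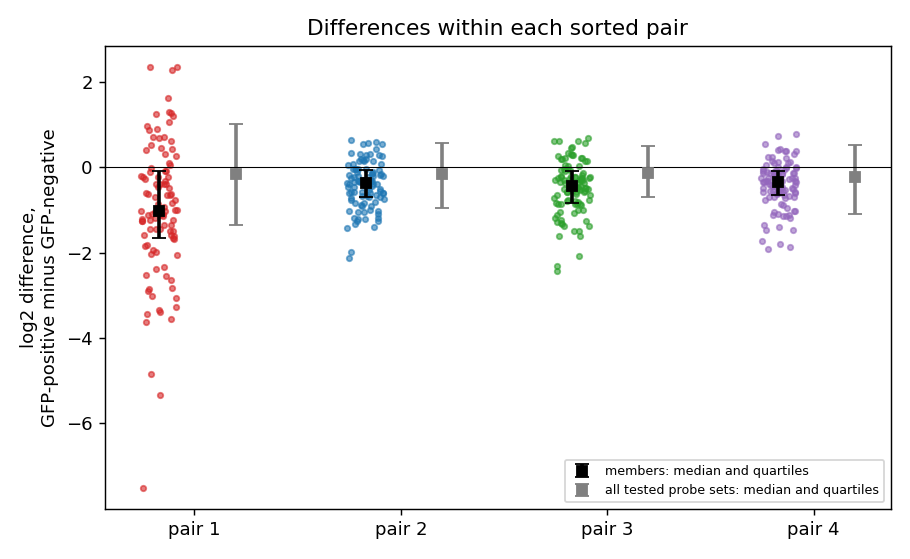
Points are the 105 tested splicing genes in each sorted pair, by their log2 difference, GFP-positive minus GFP-negative. Squares with bars give medians and quartiles, black for the splicing genes (-1.02 in pair 1, -0.34 to -0.43 in pairs 2 to 4) and grey for all tested probe sets (-0.23 to -0.13 in the 4 pairs).

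SR proteins, which bind exonic enhancers and recruit the spliceosome, had a class median of -0.76, below those of the other classes with all 4 pairs and without replicate 1, 3 or 4. Without replicate 2 the median was -0.815, against -0.822 for Sm and LSM proteins. All 13 were tested, 3 fell (23.1%, background 18.4%) and 0 rose, with 12 of 13 below 0 (background 57.0%). At an unadjusted p under 0.05, 8 were lower (61.5%, background 26.7%). Signals of srsf1b (NCBI gene ID 393565), whose human counterpart is the founding SR protein, were 415, 1742, 1913 and 1632 on GFP-positive replicates 1 to 4, against 896, 3196, 4543 and 3694 on GFP-negative replicates 1 to 4. It was lower in 4 of 4 pairs, and the fractions overlapped only through the low first pair. The log2 difference was -1.103 (SE 0.25, n = 4 pairs, limma adjusted p = 0.018), a 2.15-fold lower signal, and the call was lost with no replicate block (adjusted p = 0.21). For srsf2b (NCBI gene ID 323700), a counterpart of human SRSF2, the signals were 3379, 4805, 5864 and 3929 in the GFP-positive fraction and 8549, 10839.6, 8270.0 and 13568 in the GFP-negative fraction. Every GFP-positive value lay below every GFP-negative one, and the difference was -1.20 (SE 0.30, limma adjusted p = 0.025). The third, srsf10b (NCBI gene ID 393505), related to a human SR protein that represses splicing when it is dephosphorylated, had 1129, 2304, 2076 and 1951 in GFP-positive cells and 3386, 3499.5, 5340.4 and 2842 in GFP-negative cells. Its fractions did not overlap either (-1.02, SE 0.30, limma adjusted p = 0.041). Of the 10 others 9 were below 0. The lowest was srsf7a at -1.25 (adjusted p = 0.086), whose fractions were separate but which leaned on the first pair (-0.71 without replicate 1). At the other end srsf4 had 14998, 14221, 28943 and 19454 in GFP-positive and 11045, 19419.9, 17945 and 25969 in GFP-negative cells, lower in 2 of 4 pairs, with a difference of 0.066 (95% confidence interval -0.67 to 0.80).

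Copies of srsf1b and srsf2b had differences below 0 as well, and neither copy was called. The pairs srsf1a and srsf1b, and srsf2a and srsf2b, are compared because 1 copy of each was called. Signals of srsf1a were 1909, 11848, 12137 and 10116 in GFP-positive and 5388, 17761, 18636 and 12717 in GFP-negative cells, a difference of -0.76 (adjusted p = 0.094). Those of srsf2a were 3329.7, 18927, 18735 and 23821 in GFP-positive and 13553, 23766, 23598 and 21688 in GFP-negative cells, a difference of -0.64 (adjusted p = 0.26), and the low first GFP-positive value stood far from the others. The difference between copies, srsf1a minus srsf1b, was 0.35 (SD 0.54 over 4 pairs), and srsf2a minus srsf2b was 0.56 (SD 1.103). Each was above 0 in 3 of 4 pairs. These differences are given as values, since the exact sign-flip permutation test over 4 pairs cannot go below p = 0.125 and so cannot pass. Of 14 pairs of symbols that end in a and b, of which snrpa and snrpb are not copies, 4 kept one direction in 4 of 4 sorted pairs. No share over other pairs of probe sets was computed, so whether this is more than unrelated genes would show was not tested. Even and independent signs are no fair reference. Of all tested probe sets 31.8% were lower and 22.0% higher in 4 of 4 sorted pairs. The 4 included ddx3xa over ddx3xb, by 1.17 (0.17 to 2.63 over the pairs), hnrnpaba over hnrnpabb, by 0.76, and ddx39aa over ddx39ab, by 0.38. The last was hnrnpa0b over hnrnpa0a. By the brightest probe sets hnrnpa0a minus hnrnpa0b was -1.37 (-2.14 to -0.0077 over the pairs). The other hnrnpa0b probe sets ran from -1.70 to 2.49, so the order of these copies depends on the probe set.

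The hnRNPs, which coat new transcripts, included the lowest of all 105 genes, hnrnpl, and several near 0. All 20 genes of this class, sfpq included, were tested, 3 fell (15%, background 18.4%), 0 rose and the median was -0.50. The smallest p of all 105 genes belonged to sfpq (NCBI gene ID 406564), a nuclear RNA-binding protein of paraspeckles that zebrafish need for motor neuron development. Its signals were 8346, 5888, 12195 and 6654 in the GFP-positive fraction, against 19034, 23081, 22043 and 21945 in the GFP-negative fraction, with no overlap. The difference of -1.43 (SE 0.30, limma adjusted p = 0.013) is a 2.70-fold lower signal. Its call was kept in 9 of 11 alternatives and lost without replicate 2 or replicate 4. Next came hnrnpc (NCBI gene ID 406352), which binds uridine tracts in introns, with 922, 2937, 3305 and 2972 in GFP-positive and 10778, 7816, 7809.5 and 5380.2 in GFP-negative cells. Here too the fractions were separate, and the first GFP-positive array was the lowest. The gene differed by -1.76 (SE 0.47, limma adjusted p = 0.030). For hnrnpm (NCBI gene ID 555643), a regulator of exon choice, the signals were 1467, 8378, 10800.0 and 9979.8 in GFP-positive cells and 15969, 19838, 22551 and 18495 in GFP-negative cells (-1.66, SE 0.46, limma adjusted p = 0.035). Without replicate 1 the differences of hnrnpc and hnrnpm were -1.17 and -1.07, and both calls held. Both were lost under median centring and without replicate 2, 3 or 4, and that of hnrnpm also with no replicate block (adjusted p = 0.059).

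**Figure D3:**
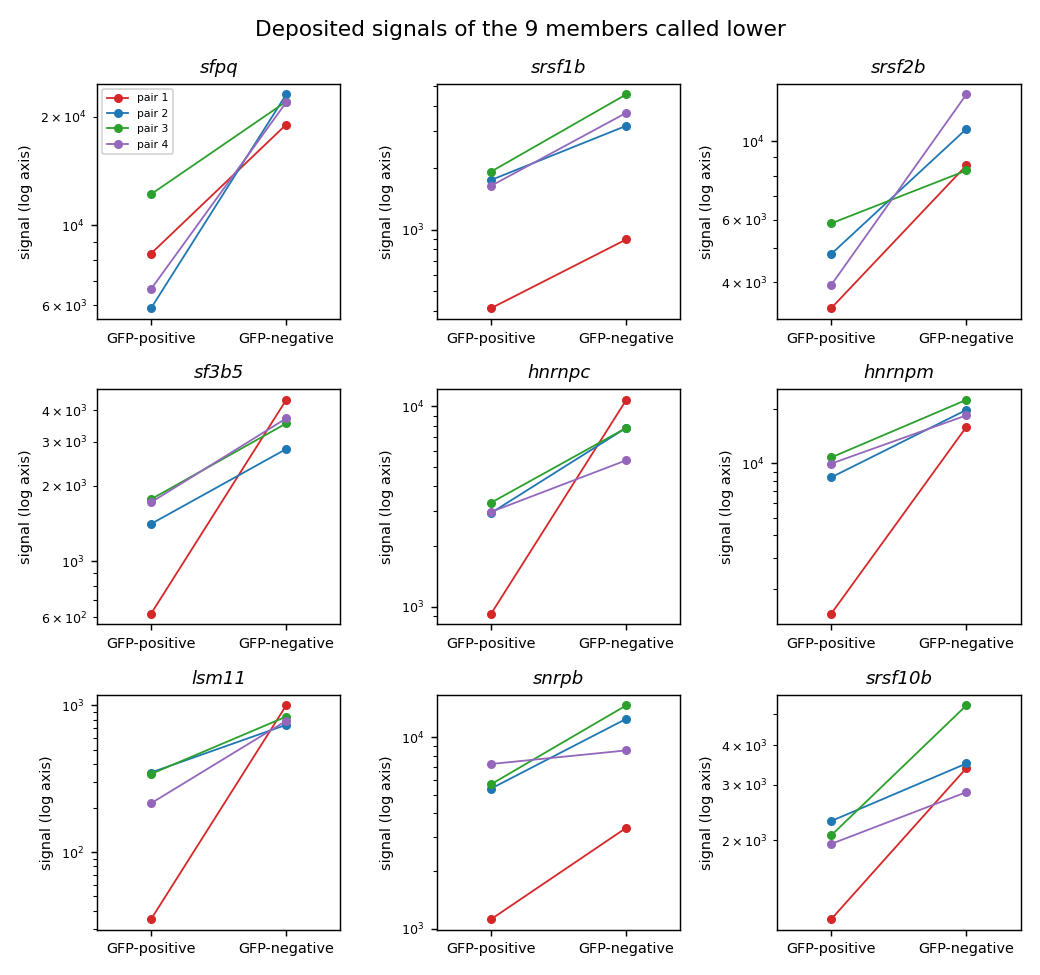
Deposited signals (log axis, a scale of its own in each panel) of the 9 genes called lower, with GFP-positive arrays on the left, GFP-negative arrays on the right and a line for each sorted pair. All lines rise to the right, and for snrpb and srsf1b the pair 1 line lies far below the others (1121 and 3367 for snrpb).

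The largest fitted difference of all was that of hnrnpl, singled out after its values were seen. Its product binds CA-rich RNA. Signals were 14.6, 1550.0, 1575 and 1420.1 on GFP-positive arrays, against 2656, 3603, 4758 and 3111 on GFP-negative arrays, so the fitted -2.86 (SE 1.05, adjusted p = 0.078) leans on the first GFP-positive array. Without replicate 1 it was -1.31 and passed (limma adjusted p = 0.013). Of the 16 remaining hnRNPs 12 were below 0 and none was called. Among them hnrnpr, close to the threshold, had 1624, 2681, 3101 and 2873 in GFP-positive and 5728, 4749, 4586 and 4628 in GFP-negative cells, with separate fractions (-0.97, adjusted p = 0.052). The highest was hnrnpa0l (0.46, adjusted p = 0.30). For hnrnpa1b, an abundant shuttling hnRNP, signals were 44256, 18004, 25699 and 24949 in GFP-positive and 19149.8, 27406, 29025 and 24671 in GFP-negative cells, a difference of 0.11 (95% confidence interval -0.73 to 0.95). For hnrnpub, related to a nuclear matrix protein, they were 8352, 9825, 12524 and 9439 in GFP-positive and 6714, 12035, 9163 and 13986 in GFP-negative cells, a difference of -0.024 (95% confidence interval -0.72 to 0.67). Both sets of values overlapped widely.

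Sm and LSM proteins form the rings that hold snRNAs, and 20 of 22 of these genes were tested. Of them 2 fell (10%, background 18.4%), 0 rose, and the median was -0.58. The core protein gene snrpb (NCBI gene ID 402966) had 1121, 5399.6, 5687 and 7253 in the GFP-positive fraction and 3367, 12493, 14690.5 and 8541 in the GFP-negative fraction. It was lower in 4 of 4 pairs, with a log2 difference of -1.1 (SE 0.31, limma adjusted p = 0.038), and the call was lost with no replicate block. The fractions overlapped through the low first pair. The other called gene, lsm11 (NCBI gene ID 100004030), belongs to the snRNP that trims histone transcripts and takes no part in splicing. It had 35.0, 349, 341 and 216 in GFP-positive and 1000.4, 737, 838 and 784 in GFP-negative cells, and its GFP-positive signal was above the 40th percentile on 3 of 4 arrays. The difference was -2.27 (SE 0.64, limma adjusted p = 0.036), or -1.41 without replicate 1. The Sm gene snrpf, in contrast, had 15870.1, 17840.5, 28848 and 20364 in GFP-positive and 16668, 20263, 23794 and 20991 in GFP-negative cells, a difference of -0.0051 with a 95% confidence interval of -0.60 to 0.59. The neighbouring symbol snrpa, a protein of the U1 snRNP and no copy of snrpb, differed by -0.86 (adjusted p = 0.078) with separate fractions. The other U1 and U2 proteins, snrpc (-0.56) and snrpb2 (-0.97), were separate as well, and neither was called. Among LSM proteins outside the rings that hold snRNAs, lsm14aa and lsm14ab, of cytoplasmic RNA granules, differed by -1.13 (-0.11 by a dimmer probe set) and -0.78. The gene lsm1, of the ring that starts mRNA decay, differed by -0.58. Unlike these, lsm12b differed by 0.39 (-0.92 by a dimmer probe set) and lsm12a by -0.17 (0.55 by a dimmer one). None of lsm14aa, lsm14ab, lsm1, lsm12a and lsm12b was called.

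The Sm ring and the LSM ring on U6 snRNA gave opposite medians only with the first pair included. Sorting the genes by ring was done after their values were seen. A gene sorted into the U6 ring need not be particular to it. All 7 tested Sm ring genes were below 0 (background 57.0%), with a median of -0.58. Of the LSM ring only lsm4, lsm6, lsm7 and lsm8 were among the 114 genes. Of these 4 genes 3 were above 0 and lsm8 was below 0, with a median of 0.42. None of these 4 passed the test. Signals of lsm4 were 31906, 7815, 7508 and 7996 on GFP-positive arrays, against 6583, 7496, 8966 and 7249 on GFP-negative arrays. Those of lsm6 were 28761, 6339.5, 5183 and 6577 in GFP-positive and 5617, 6521, 6699.5 and 10295 in GFP-negative cells. In both genes the first GFP-positive array stood alone, at 31906 and 28761, with the other 7 arrays between 6583 and 8966 for lsm4 and between 5183 and 10295 for lsm6. Without replicate 1 the differences were -0.018 for lsm4 and -0.35 for lsm6, and the LSM ring median was -0.19, against -0.46 for the Sm ring. Of the other ring members lsm7 had 16784, 22026, 20726 and 17313 in GFP-positive and 9152, 14569.8, 14021 and 17155 in GFP-negative cells (0.51, adjusted p = 0.19), and lsm8 had 1699, 5648, 5685 and 4583 in GFP-positive and 7043, 7088, 10214 and 7350.4 in GFP-negative cells (-0.98, adjusted p = 0.073).

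**Figure D4:**
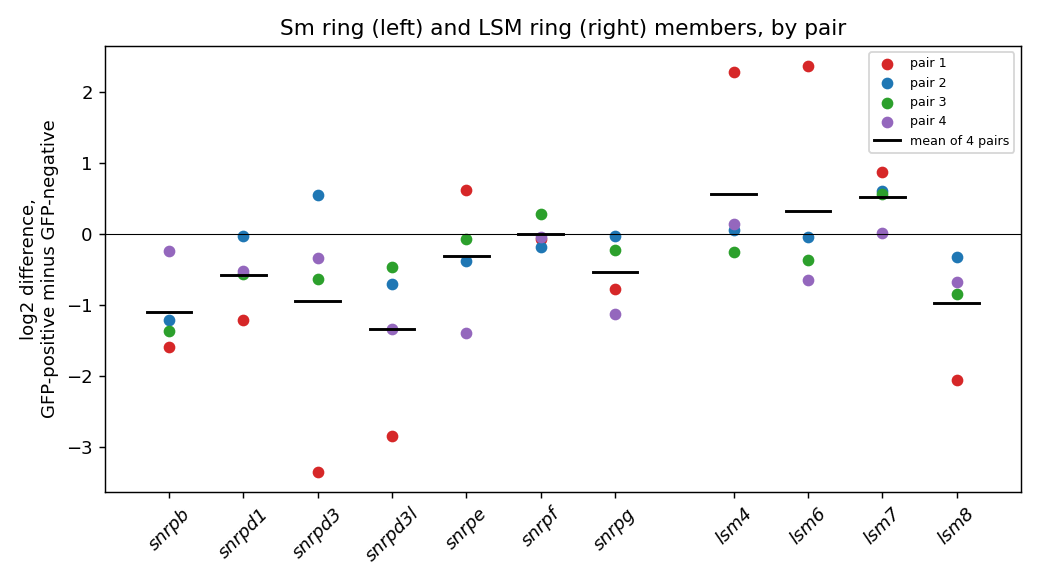
Log2 differences, GFP-positive minus GFP-negative, of the 7 tested Sm ring genes (left) and the 4 LSM ring genes (right), a point for each sorted pair and a bar for the mean. In pair 1 lsm4 and lsm6 stand above 2 while snrpd3, snrpd3l and lsm8 stand below -2; in pairs 2 to 4 all points of these 11 genes lie between -1.39 and 0.60.

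SF3 and U2AF proteins recognise the branch site and the end of the intron. All 11 were tested, 1 fell (9.09%, background 18.4%), 0 rose, the median was -0.55 and 10 of 11 were below 0 (background 57.0%). The small SF3B subunit gene sf3b5 (NCBI gene ID 436751) had 619, 1411, 1770.2 and 1721 in GFP-positive cells and 4410.5, 2808, 3553 and 3721 in GFP-negative cells. No values overlapped, and the difference was -1.49 (SE 0.39, limma adjusted p = 0.027). Counterparts of sf3b1 and u2af1 are often mutated in human myelodysplastic syndromes, and neither passed by its brightest probe set. For sf3b1, the largest SF3B subunit, signals were 5258, 13746, 12776 and 13124 in GFP-positive and 14396, 17288, 15202 and 16248 in GFP-negative cells, lower in 4 of 4 pairs without overlap (-0.59, adjusted p = 0.19). Another sf3b1 probe set, with lower signals, was called lower (-1.13, limma adjusted p = 0.027). For u2af1, which reads the AG at the end of the intron, they were 639, 1170.3, 726 and 1281 in GFP-positive and 1352, 2363, 3072 and 1369 in GFP-negative cells, also separate (-1.07, adjusted p = 0.063). Its partner u2af2b, which binds the pyrimidine tract, had 9622, 21744, 30964 and 21376 in GFP-positive and 9195, 19430.5, 20166 and 25525 in GFP-negative cells and differed by 0.15 (95% confidence interval -0.50 to 0.79). A dimmer u2af2b probe set differed by -0.54 and was not called (limma adjusted p = 0.52). The 6 SF3B genes had a median of -0.62 and the 3 SF3A genes one of -0.42, with all 9 below 0 by their brightest probe sets. The SF3A median is the value of sf3a2, which was lower in 2 of 4 pairs. A dimmer sf3a2 probe set differed by 0.31 and was not called. Without replicate 3 or replicate 4, 2 of the 3 SF3A genes were below 0.

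PRPF proteins were all below 0 (background 57.0%, and 83.8% over all 105 genes). None was called (background 18.4% lower and 13.0% higher). All 11 were tested, with a median of -0.45 and a range of -1.39 to -0.11. At an unadjusted p under 0.05, 2 were lower (18.2%, background 26.7%) and 0 higher (background 17.4%). The lowest was prpf6, a bridge between the U5 and U4/U6 particles, with 544, 2135, 2653 and 2327 in GFP-positive and 5707, 3774, 4558 and 3419.9 in GFP-negative cells. Its fractions were separate, but it did not pass (-1.39, adjusted p = 0.077) except without replicate 1 (-0.72, limma adjusted p = 0.042). The scaffold gene prpf8 had 5283, 15694, 17414 and 12213 in the GFP-positive fraction, against 12600.5, 13744, 18539 and 17414 in the GFP-negative fraction. It was lower in 3 of 4 pairs, with a mean difference of -0.42 (95% confidence interval -1.18 to 0.34). The U4/U6 protein gene prpf3 had 1968, 1304, 1663 and 1752 in GFP-positive and 2442, 1474, 2139 and 1334 in GFP-negative cells, a difference of -0.11 (95% confidence interval -0.76 to 0.53).

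DEAD- and DEAH-box helicases formed the largest class and the one nearest to the background median. Of 37 genes 30 were tested, with a median of -0.32, and none was called (background 18.4% lower and 13.0% higher). At an unadjusted p under 0.05, 3 were lower (10%, background 26.7%) and 0 higher (background 17.4%). Grouped by role after their values were seen, 9 tested helicases of splicing and mRNA export had a median of -0.81 and 11 of ribosome assembly had a median of -0.36; without replicate 1 these medians were -0.46 and -0.17. The difference between the roles was not tested. The export helicase ddx39ab had 709.9, 8683, 9652 and 11409 in GFP-positive cells, against 6813, 17839, 24357 and 14714 in GFP-negative cells. It missed the threshold (-1.50, SE 0.48, adjusted p = 0.052) and passed without replicate 1 (limma adjusted p = 0.033), at -0.91. Its copy ddx39aa had 2596, 17198, 16859 and 19532 in GFP-positive and 21598, 25758, 28942 and 20604 in GFP-negative cells (-1.12, adjusted p = 0.13). A splicing helicase that zebrafish blood stem cells need, ddx46, was picked out after its values were seen. It had 103, 1389, 1961 and 1642 in GFP-positive and 4129, 3305, 4756 and 2484 in GFP-negative cells, which gave -2.11 (adjusted p = 0.073), or -1.04 without replicate 1, where it passed (limma adjusted p = 0.026).

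The third UAP56-like gene, ddx39b, had 1745, 1242, 2350.1 and 1522 in GFP-positive and 4701, 3274, 2460.3 and 3115 in GFP-negative cells, again separate (-0.98, adjusted p = 0.058). At the upper end dhx57 differed by 0.74 (adjusted p = 0.26), the highest value of all 105 genes. Among helicases with known roles that were not called, ddx18 and ddx3xa lay near 0. The ribosome assembly helicase ddx18, which zebrafish blood cells need, had 5394, 3646, 7375 and 3516 in GFP-positive and 4441, 3256, 6615 and 4818 in GFP-negative cells, a difference of 0.037 (95% confidence interval -0.60 to 0.67). For dhx15, which takes spent spliceosomes apart, signals were 4552, 7611, 9214 and 8229.8 in GFP-positive and 6864, 8746, 11338 and 8333 in GFP-negative cells, lower in 4 of 4 pairs, with a mean difference of -0.28 (95% confidence interval -0.89 to 0.33). The broadly acting ddx5 had 893, 4704, 5830.1 and 5890.3 in GFP-positive and 5515, 6438, 7141 and 5348 in GFP-negative cells, where the first GFP-positive array was far below the rest (-0.81, adjusted p = 0.23; -0.20 without replicate 1). The translation helicase ddx3xa had 2904, 5590.2, 4088 and 5845 in GFP-positive and 5784, 4124, 3903 and 3984 in GFP-negative cells, a difference of 0.016 (95% confidence interval -0.79 to 0.82).

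The 9 genes that failed the filter were ddx1, ddx4, ddx6, ddx17, ddx19a, ddx54, dhx32a, lsm14b and snrpd2. Among them ddx4, the germ cell helicase Vasa, had 241, 49.2, 608 and 134 on GFP-positive replicates 1 to 4, against 133, 55.2, 86.7 and 73.2 on GFP-negative replicates 1 to 4. It was above the 40th percentile only on GFP-positive replicate 3. Of the other germ cell markers dnd1, with 15104, 3712, 10119 and 6403 in GFP-positive and 3405, 2854, 2919 and 2689.9 in GFP-negative cells, rose (1.39, limma adjusted p = 0.025), and nanos3 had 5037, 141, 8606 and 1515 in GFP-positive and 501, 249.7, 344 and 157 in GFP-negative cells (2.61, adjusted p = 0.0505, not called). Of the 5 listed germ cell markers nanos3, ddx4 and tdrd7a were highest on GFP-positive replicate 3. The highest signal of dnd1 was on GFP-positive replicate 1, and that of piwil1 on GFP-positive replicate 4. Like ddx4, tdrd7a and piwil1 failed the filter.

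Probe sets of a gene did not always give the same difference. Of 27 genes with more than 1 probe set, 19 had more than 1 tested. The widest spread was in hnrnpa0b, where the brightest probe set differed by 0.24 and was not called (adjusted p = 0.54). A dimmer probe set of it had 3168, 6538, 4699 and 7011 in the GFP-positive fraction, against 1188, 614, 1322 and 705 in the GFP-negative fraction. It rose by 2.49 (SE 0.42, limma adjusted p = 0.0073), while another differed by -1.70 (adjusted p = 0.051). In hnrnpa0a the brightest probe set differed by -1.13 (adjusted p = 0.12), and a dimmer one, with 297, 2879, 4142 and 4979.7 in GFP-positive and 8371, 15403, 10554 and 11121 in GFP-negative cells, fell by 2.44 (limma adjusted p = 0.024). The signal of hnrnpa0b is therefore given as uncertain in direction. For srsf1b the second probe set differed by -0.36 and was not called (adjusted p = 0.56). Dimmer probe sets of srsf6a differed by 0.48 and -1.11, and neither was called.

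**Figure D5:**
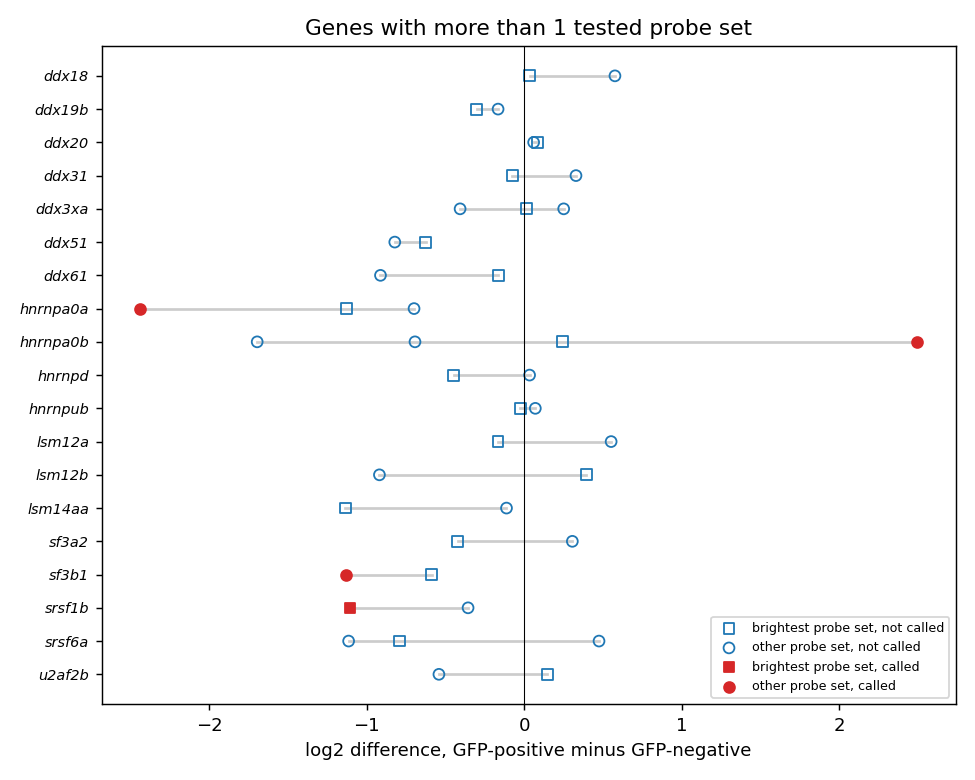
Log2 differences, GFP-positive minus GFP-negative, of each tested probe set in the 19 genes with more than 1, squares for the brightest probe set and circles for the others, filled in red where called. The probe sets of hnrnpa0b run from -1.70 to 2.49, and those of hnrnpub and ddx20 lie close together.

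Splicing genes outside these symbols were also lower on balance, and the polypyrimidine tract binding protein genes ptbp2b and ptbp1a were called in opposite directions. In a list of other spliceosome, exon junction and RNA-binding genes 96 were on the array and 91 tested. Of these 19 fell and 1 rose, or 20.9% and 1.1% against the same backgrounds of 18.4% and 13.0%, with a median of -0.65. The neural splicing repressor ptbp2b had 348, 315, 1237 and 347 in GFP-positive cells, against 4152, 4953, 3679 and 4830.3 in GFP-negative cells. It was 9.39-fold lower (-3.23, SE 0.44, limma adjusted p = 0.0043), and its highest GFP-positive value was on replicate 3. Its relative ptbp1a, a copy of the form of non-neural cells, had 7917, 4084, 8432 and 6556 in GFP-positive and 2708, 2763, 3413 and 3299 in GFP-negative cells and was the gene of this list that rose (1.102, SE 0.28, limma adjusted p = 0.027), a 2.15-fold higher signal. The call of ptbp2b held in 11 of 11 alternatives, and that of ptbp1a was lost without replicate 2, 3 or 4. The other copy, ptbp1b, named here after its values were seen, had 15614, 1565, 7083 and 1999 in GFP-positive and 5115, 4289, 5666 and 6042 in GFP-negative cells and was not called (-0.28, adjusted p = 0.73), nor was ptbp3 (1.301, adjusted p = 0.089). The RNA-binding gene rbm4.1 had 41.5, 275, 351 and 283 in GFP-positive and 366, 1536, 1604 and 718 in GFP-negative cells (-2.29, limma adjusted p = 0.0068). The exon enhancer binding gene tra2b had 2869.9, 3874, 4110.4 and 4016 in GFP-positive and 7583, 9154, 6504 and 7457 in GFP-negative cells (-1.05, limma adjusted p = 0.027). The call of tra2b was lost under median centring and without replicate 2, 3 or 4. For ptbp2b, ptbp1a, rbm4.1 and tra2b, which were chosen for their small p, the fractions did not overlap. Over the 91 genes this held for 34.1% that were lower and 3.30% that were higher, against 19.9% and 14.5% of all tested probe sets. The GFP-positive signal of rbm4.1 was above the 40th percentile on 3 of 4 arrays.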

How the data were processed

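Expression was measured on 8 Affymetrix zebrafish arrays. The deposited intensity values are linear MAS5 signals per probe set, per the submitters' processing notes (version not given in the sources used here), and their trimmed mean was 1500.26 to 1500.47 on all 8 arrays. Detection calls and scanner files were not used here. Of 15617 probe sets 115 controls were left out of the tests, 10802 had 1 gene symbol, 135 several and 4680 none. No coordinates are given, because the annotation names no build.

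The log2 of each signal, with no pseudocount, was fitted with limma 3.58.1 in R 4.3.3 (lmFit, eBayes with trend, two-sided; Benjamini-Hochberg over 9801 tested probe sets, threshold 0.05). The fit was tested on simulated data with independent errors. These hold no array that stands apart, so they cannot show how the fit handles GFP-positive replicate 1. The replicate number was a block, since the design text states pairing; correlations of deviations within a pair were 0.40, 0.26, 0.18 and -0.12, so pair 4 does not show it. Differences are GFP-positive minus GFP-negative. Members, lists and alternatives were chosen with earlier results of these data known.

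Named genes were, by class, up to 3 called genes in each direction with the smallest p and the gene nearest 0, genes with known roles in blood, germ cells or RNA sensing, copies ending in a or b of which 1 was called, and up to 3 called genes in each direction of the list of other splicing genes. Of the genes with known roles ddx41, ddx58, dhx58, hnrnpa1a, hnrnpka and hnrnpkb were not among the 114. Further genes were named outside this rule with their values known, among them prpf6, srsf7a, hnrnpr, hnrnpa0l, ddx39b, dhx57, snrpc and snrpb2. The number of arrays limits the precision. Alternatives changed the block, scaling, pseudocount, filter, variance trend, probe set choice, gene symbols and replicates.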

Additional observations from a re-analysis of the deposited data

Results flagged for a closer look

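Dixon's test at 95% was run on 56 groups of 4 arrays. They were 27 tested genes named by the stated rule, and the median of the splicing genes, in each fraction. In these groups 13 values stood far from the other 3. Chance flags about 1 in 20 independent groups. These groups are not independent, since all are read from the same 4 arrays of each fraction. On GFP-positive replicate 1, 11 of the 13 were found, all low. The log2 signal there was 8.70 for srsf1b, 9.85 for hnrnpc, 10.52 for hnrnpm, 10.13 for snrpb, 9.80 for ddx5, 11.34 for ddx39aa, 9.47 for ddx39ab, 12.36 for sf3b1, 11.70 for srsf2a and 10.90 for srsf1a, and the median of the splicing genes stood 0.77 above that of all tested probe sets, against 1.92 to 2.03 on the other GFP-positive arrays. The other 2 were on GFP-negative replicate 1, where ddx3xa was high at 12.50 (11.93 to 12.01 on the others) and srsf2a low at 13.73 (14.40 to 14.54 on the others).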

How the results depend on the processing

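The count of splicing genes called lower was the result that moved most. Against 9 it was 1 after median centring, 14 with log2(signal + 100), 8 with no replicate block, and 0 to 18 with 1 replicate left out. The share of all tested probe sets called lower, 18.4% in the main fit, moved too. It was 14.7% after median centring, 20.0% with log2(signal + 100) and 17.2% with no replicate block. With 1 replicate left out it was 6.43% to 20.8%. Of 13 alternatives 1, the update of gene symbols, changed 0 member symbols and gave the main values again, so it adds no check. No gene was called higher in 12 of the 13. The exception was the choice of the dimmest tested probe set of each gene, which gave 1, hnrnpa0b. Over all tested probe sets the calls with 1 replicate left out were 645 to 1493 higher and 634 to 2053 lower. The median of the splicing genes stayed below 0 under every alternative, between -0.57 and -0.34. Of the 9 called genes, 9 kept their call without the filter, without the variance trend and with log2(signal + 100), 9 with the 60th percentile filter, 7 after quantile normalization and 6 with no replicate block. Differences near 0 changed sign. After quantile normalization they were -0.20 for srsf4, -0.090 for u2af2b, 0.11 for prpf3 and -0.21 for hnrnpa1b. After median centring they were 0.17 for hnrnpub, 0.18 for snrpf and 0.075 for prpf3. With 1 replicate left out, the differences ran from -0.14 to 0.24 for srsf4, -0.18 to 0.16 for hnrnpub, -0.10 to 0.054 for snrpf, -0.0094 to 0.28 for u2af2b, -0.16 to 0.35 for ddx3xa, -0.045 to 0.20 for ddx18, -0.26 to 0.35 for hnrnpa1b, -0.018 to 0.83 for lsm4 and -0.35 to 0.65 for lsm6. The causes were not tested. Genes of low signal and changes under the spread of 4 pairs are beyond what these arrays can show.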
